A study of Mus musculus with 6 samples.

Results

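H3K27ac peaks that lie inside introns 10 kb or farther from the nearest transcription start site (TSS) were examined in mouse quadriceps, and are called distal intron peaks here. A peak was taken when the annotation of its centre began with intron and its distance to the nearest TSS was at least 10000 bp in either direction. The rule also left out peaks named as repeats, but the column that would name a repeat held NA for every peak, so this removed none. The rule took 15406 of 46988 peaks (32.8%) of the control list and 12555 of 40721 peaks (30.8%) of the detrained list, and it used no signal value. For comparison, the lists held 8454 and 7439 intron peaks nearer than 10 kb to a TSS, and 11675 and 10110 intergenic peaks at 10 kb or farther.

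The mice were wild type males, of strain C57BL/6 in the labels of the H3K27ac libraries and C57BL/6J in the study's methods, and each H3K27ac library came from 1 quadriceps of 1 animal. Mice of both groups were 8 weeks old at the start. Control mice were sedentary, and detrained mice had free access to running wheels for 4 weeks and were then rested for 72 h without a wheel before harvest. Each group had 2 H3K27ac libraries (C2 and C3 for control, Ex1 and Ex2 for detrained) and 1 input library. No library of mice still running was analysed here, so the contrast is of rested, previously running mice with sedentary mice.

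Acetylation of lysine 27 on histone H3 is placed by the acetyltransferases p300 and CBP and marks active promoters and enhancers. An enhancer can act on a promoter many kilobases away by chromatin looping, and the introns of long genes hold many of them. Such an intronic element may serve the gene that hosts it or a neighbouring gene, and the nearest TSS is only a label of position. In muscle, enhancers carry binding sites for factors such as MEF2, which drives muscle and fibre-type genes, and for the myogenic basic helix-loop-helix factors, which bind E-boxes.

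The central 200 bases of 5 distal intron peaks are shown as examples of the called changes and of the densest pairs described further on. Prune2 and Foxp1 were among the largest increases, Igf1 was among the largest decreases, and Ssc4d and Cap2 were among the densest peaks. The nearest TSS of each was that of the host gene. The sequences are the plus strand of RefSeq's GRCm38.p6 (mm10), 5′ to 3′, centred on the control peak. Capitals mark matches on either strand to any of 5 motifs: the E-box CAGCTG, the AP-1 motif TGANTCA, the TEAD motif ACATTCC, the ERR motif TCAAGGTCA and a MEF2 motif of CTA and TAG with any 4 bases between them.

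Prune2, chr19:17011576-17011775: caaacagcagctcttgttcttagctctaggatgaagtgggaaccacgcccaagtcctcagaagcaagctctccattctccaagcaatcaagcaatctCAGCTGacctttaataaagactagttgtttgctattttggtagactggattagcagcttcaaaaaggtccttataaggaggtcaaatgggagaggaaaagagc
Foxp1, chr6:99359136-99359335: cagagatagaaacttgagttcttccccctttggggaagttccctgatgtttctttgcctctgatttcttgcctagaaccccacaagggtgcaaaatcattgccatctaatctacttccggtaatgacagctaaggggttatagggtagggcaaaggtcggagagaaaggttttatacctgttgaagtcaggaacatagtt
Igf1, chr10:87902385-87902584: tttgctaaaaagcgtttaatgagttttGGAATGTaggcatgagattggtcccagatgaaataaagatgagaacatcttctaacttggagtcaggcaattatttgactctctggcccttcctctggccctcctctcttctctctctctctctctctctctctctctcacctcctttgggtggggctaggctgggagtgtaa
Ssc4d, chr5:135962277-135962476: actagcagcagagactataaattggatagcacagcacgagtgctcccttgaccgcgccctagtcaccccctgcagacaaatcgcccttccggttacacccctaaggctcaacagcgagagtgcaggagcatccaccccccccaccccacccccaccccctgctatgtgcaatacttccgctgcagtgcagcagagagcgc
Cap2, chr13:46572372-46572571: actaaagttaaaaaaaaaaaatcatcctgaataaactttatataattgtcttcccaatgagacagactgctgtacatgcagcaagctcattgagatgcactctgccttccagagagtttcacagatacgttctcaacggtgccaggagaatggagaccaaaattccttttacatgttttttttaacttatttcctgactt

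The Prune2 window held an E-box at its centre, at chr19:17011673-17011678, and the Igf1 window held a TEAD motif on the minus strand at chr10:87902412-87902418. The other 3 windows held none of the 5 motifs. H3K27ac lies on the nucleosomes beside a factor's site, so the centre of a peak is a position and not a mapped site. Of the central windows of the distal intron peaks, 13.5% in the control list and 13.8% in the detrained list held the E-box, against 13.1% and 13.3% of all listed peaks and 13.9% and 14.6% of distal intergenic peaks. The MEF2 motif was in 3.93% and 3.94%, against 3.33% and 3.28% of all listed peaks and 3.61% and 3.76% of distal intergenic peaks. The AP-1 motif was in 7.20% and 7.99% of the distal intron windows, below the 8.51% and 9.29% of distal intergenic peaks and above the 6.02% and 6.17% of intron peaks nearer the TSS. The TEAD motif was in 3.21% and 3.09%, against 3.55% and 3.49% of distal intergenic peaks, and the ERR motif in 0.597% and 0.502%, against 0.463% and 0.732%. Over all listed peaks the shares were 6.71% and 7.13% for AP-1, 2.91% and 2.87% for TEAD, and 0.549% and 0.557% for ERR. Each share is a description of these letters, and GC content also differed between the classes, with a median of 45.8% and 46.0% in distal intron peaks and of 49.5% and 50% in nearer ones.

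The libraries held between 20805019 and 22400894 tags, and the inputs held 10812470 tags for control and 21298438 tags for detrained mice. Distal intron peaks took between 10.9% and 12.3% of all tags of a library and between 23.8% and 24.8% of the tags in listed peaks. The labelled tissue was checked on 10 genes of the muscle fibre, of which 9 had a listed peak in each list (Tnnt3 was nearest to none). Their peaks summed to 9177 and 11529 tags per 10000000 in C2 and C3, against 10434 and 10004 in Ex1 and Ex2. All 6 endothelial and all 6 fibroblast markers also had peaks in both lists, at 2986 to 3543 and 3520 to 3653 tags per 10000000 in control and at 3227 to 4261 and 4312 to 4344 in detrained libraries. Of 6 immune markers 3 had a peak in control and 5 in detrained mice, with 178 to 222 and 353 to 397 tags, and the pan-leukocyte gene Ptprc had none in control. Smooth muscle and pericyte markers (4 of 4 with a peak in both lists) had 870 and 946 in C2 and C3, against 1191 and 1115 in Ex1 and Ex2. Satellite cell markers (4 of 4) had 462 and 442 against 495 and 574, and Schwann cell markers (2 of 4) 302 and 313 against 478 and 438. Of 4 adipocyte markers 1 had a peak in control, with 15.1 and 19.8, and none in detrained mice. The fibroblast, immune, smooth muscle, satellite and Schwann cell sums were thus higher in both detrained libraries, while the fibre and endothelial sums overlapped. Each sum was over the peaks of its own list, so the sums are not of the same regions, and a marker without a peak added nothing. Control and detrained lists held 5 and 8 immune, 7 and 10 satellite and 8 and 11 Schwann cell peaks, but 40 and 35 fibroblast and 18 and 14 smooth muscle peaks. The part of peak listing in the sums was not tested. Of 4 hepatocyte markers none had a peak in control and 1 in detrained mice. The part of cell composition in the results was not tested, and in whole muscle a change in the number of cells of a type and a change in signal per cell cannot be told apart. The groups' peaks were called once per group on both libraries against inputs of unequal depth, and the part of input depth in the lists was not tested.

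Where the members lie follows in large part from the limit of 10 kb, which sets their distances and favours long and later introns, so the positions are a description. The median distance to the nearest TSS was 35.9 kb in both lists, with quartiles of 19.7 and 68.1 kb in control and 19.8 and 67.8 kb in detrained mice. The farthest lay 862 kb from any TSS in control and 976 kb in detrained mice. The first intron held 29.1% of them in control and 28.2% in detrained mice, whereas it held 71.9% and 74.2% of the intron peaks nearer the TSS. The third or a later intron held 52.4% and 53.2%. The introns that held them had a median length of 29.7 kb and 29.1 kb, against 9.79 kb and 9.33 kb for nearer peaks. The nearest TSS belonged to the host gene for 68.9% of the control and 68.0% of the detrained members. For the remaining 4786 and 4015 members it belonged to another gene, or to a transcript with another symbol.

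The peaks were of middling width, and some introns held many of them. Longer introns have room for more peaks, and whether members lay closer together than intron length would give was not tested. Their median length was 1426 bp (quartiles 801 and 2474) in control and 1732 bp (quartiles 1070 and 2884) in detrained mice. A length greater than the intron's was found for 4.76% and 6.15% of those with an intron length, so these peaks reached into exons. Neighbouring members in the same host gene were separated by a median of 5.66 kb and 6.82 kb. Of 8632 introns with a member in control mice, 68.7% held a single one, while 547 introns held 5 or more and together 25.7% of the members. Intron 1 of Rora, a nuclear receptor that regulates metabolism and the clock, was 542 kb long and held 59 members in control and 38 in detrained mice, the most of any intron. Intron 7 of Rad51b, a DNA repair gene, held 23 and 20.

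The 3 longest members of the control list lay in Zbtb16, Mbnl1 and Rbfox1. Zbtb16 encodes the zinc finger repressor PLZF, and its peak at chr9:48705600-48778806 ran for 73206 bp across an intron of 26094 bp. Its density was 78.4 and 78.2 tags per kb per 10000000 tags in C2 and C3. The overlapping detrained peak at chr9:48704575-48754845 was the longest of its list, at 50270 bp, with 115 and 123 in Ex1 and Ex2. The outer bounds of these peaks differ, so the levels are not of the same stretch of DNA. Mbnl1 and Rbfox1, which encode regulators of muscle splicing, had peaks of 42228 and 38111 bp. In the detrained list the next longest lay in Rcsd1 (49146 bp), which encodes a protein that binds the capping protein CapZ, and in Cuedc1 (37941 bp). All 6 overlapped a peak of the other list.

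Distal intron peaks were less densely acetylated than intron peaks nearer the TSS in every library, and differed little with distance beyond 10 kb. Density was (tags + 0.5) per kb of peak per 10000000 tags. The median density of distal intron peaks was 23.4 and 24.1 in the control libraries C2 and C3, and 25.9 and 25.6 in the detrained libraries Ex1 and Ex2. Intron peaks nearer than 10 kb had medians of 32.0, 33.1, 36.9 and 35.3 in the same libraries. The detrained libraries lay above the control libraries in both classes, but the lists differ in length and in their weakest peaks, so these medians are not of the same regions. Within a library the difference was -0.47 ± 0.03 on the log2 scale (mean ± SD, n = 4 libraries), a ratio of 0.722, and it was negative in 4 of 4 libraries. The exact sign-flip permutation test gave a two-sided p of 0.125, the smallest that 4 libraries allow.

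Among the nearer intron peaks the higher densities were those within 2 kb of a TSS. Intron peaks within 1 kb of a TSS had medians between 50.6 and 55.1 in the 4 libraries and those at 1 to 2 kb between 44.5 and 47.1. The medians were 24.5 to 28.4 at 2 to 5 kb and 22.98 to 26.1 at 5 to 10 kb. From there to 100 to 200 kb they ranged between 22.97 and 26.1, and at 200 kb or more between 22.2 and 24.5. Set against intron peaks at 5 to 10 kb alone, a comparison chosen after the data were seen, the difference was 0.0043 on the log2 scale, with an exact sign-flip permutation p of 0.625. Just inside the limit, at 10 to 12 kb, the medians in C2, C3, Ex1 and Ex2 were 23.5, 24.2, 25.5 and 25.4, and just outside, at 8 to 10 kb, 22.9, 23.97, 26.8 and 25.9. By intron number, the medians in the first, second and later introns were 23.3, 23.3 and 23.4 in C2 and 26.3, 25.7 and 25.8 in Ex1.

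**Figure D1:**
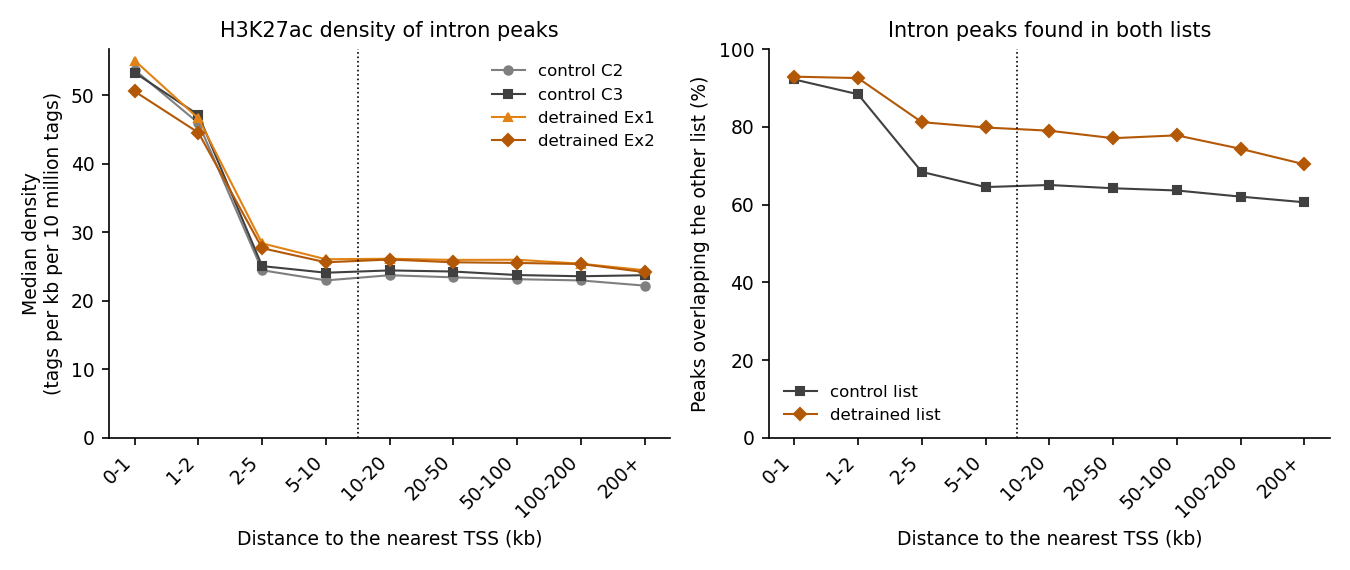
Median H3K27ac density of intron peaks in each of the 4 libraries (left, tags per kb per 10000000 tags) and the share of intron peaks that overlap a peak of the other list (right, percent), both against distance to the nearest TSS in kb. The dotted line marks 10 kb. Density falls from 50.6 to 55.1 within 1 kb to 22.98 to 26.1 at 5 to 10 kb and stays near that level beyond it in all 4 libraries.

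Distal intron peaks and intergenic peaks at 10 kb or farther had like densities. The intergenic medians were 23.9, 24.3, 25.9 and 25.6 in C2, C3, Ex1 and Ex2. The within-library differences (intron minus intergenic) were -0.03, -0.0077, 0.0021 and 0.0044 on the log2 scale. They averaged -0.0089 ± 0.018 (SD, n = 4 libraries), with an exact sign-flip permutation p of 0.5, and were negative in 2 of 4 libraries. Median lengths were also close, at 1426 against 1407 bp in control and 1732 against 1702 bp in detrained mice. The nearest gene was not protein-coding for 14.02% and 14.27% of the distal intron peaks, and for 24.3% and 24.1% of the intergenic peaks.

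Of the distal intron peaks, 64.0% in the control list shared at least 1 bp with a detrained peak, and 77.3% in the detrained list did so with a control peak. These shares were below the 72.1% and 82.0% of all listed peaks and the 77.1% and 86.5% of nearer intron peaks. Those of distal intergenic peaks were 68.2% and 77.3%. Because peaks were called once per group, a share compares lists and not mice, and no test was made. Members without a counterpart were weak, with a median of 63 pooled tags in control and 77 in detrained mice, against 257 and 255 for those with one. This was near the 64 and 79 of all listed peaks without a counterpart. Of the members without one, only 7.67% and 11.5% were at least 4-fold over input with an adjusted p of the authors under 0.001. The share was 7.49% and 12.2% of all listed peaks without a counterpart, and 59.4% and 64.4% of members with one. Among peaks that pass this limit in both lists the shares with a counterpart were 82.8% and 79.5%.

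The members found in one list that held the most tags are described here. In the control list these were in Map4 (chr9:110060461-110071439, 1387 pooled tags), which encodes a microtubule-associated protein, in Traf3ip2 (chr10:39645847-39649496, nearest TSS Gm16364, 1048 pooled tags), an adaptor of interleukin-17 receptors, and in Pik3r1 (chr13:101735244-101741551, 923 pooled tags), the regulatory subunit of PI3-kinase. Their densities were 27.3 and 29.9, 73.1 and 56.8, and 33.7 and 32.6 in C2 and C3. The peak in Traf3ip2 thus lay above the 95th percentile of the distal intron peaks in C2 (52.8) but not in C3 (61.1), whereas the other two lay below it in both. In the detrained list the strongest included those in Tulp4 (chr17:6161182-6165657, 630 pooled tags) and in Scml4 (chr10:42889818-42895310, 561 pooled tags). Their densities in Ex1 and Ex2 were 34.1 and 31.4, and 22.5 and 24.8. A peak absent from a list had no value there, so that its level in the other group is not known from these tables.

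To compare the same regions, a control and a detrained peak were paired when each covered 50% or more of the other and neither had a further partner. Of 26432 such pairs, 6800 joined a distal intron peak of each list, while 146 control and 144 detrained members were paired with a peak of another class. At the 6800 pairs the median density was 30.6 and 33.0 in the control libraries C2 and C3, and 31.7 and 30.8 in the detrained libraries Ex1 and Ex2. The groups overlapped, since both detrained libraries lay between the control libraries. The mean of the library medians was 4.99 ± 0.08 in control and 4.97 ± 0.03 in detrained mice on the log2 scale (SD, n = 2 libraries). The median log2 ratio of detrained over control was -0.03, a change of -2.19%, beside -0.03 (-1.76%) over all pairs. The control libraries differed from each other by a median of 0.12 on the same scale and the detrained libraries by -0.02, so the change between groups was smaller than the gap between the control libraries. Without C3 the median log2 ratio was 0.02 and without C2 it was -0.09, and with each library scaled to its tags in listed peaks it was 0.02. No test was made between the groups, since the authors normalized the tables separately and a permutation of 2 libraries against 2 gives no two-sided p below 0.333.

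The change at single pairs was of a size like the gaps between libraries of one group. The central 90% of the log2 ratios lay between -0.49 and 0.39, and the extremes were -1.11 and 1.13. Over the pairs, the gap between the libraries of a group had a median size of 0.21 in control and 0.15 in detrained mice, and the change, a difference between means of 2 libraries, had one of 0.18. Both detrained libraries lay above both control libraries at 1322 pairs (19.4%) and below both at 1804 pairs (26.5%), together 3126 pairs (46.0%). Among all pairs the share was 48.5%, so the share at distal intron pairs was near this background. Control library C3 was the highest of the 4 at 39.6% of the pairs and C2 the lowest at 33.2%. The authors' log2 values are shrunken, which brings the libraries of a group closer at weak peaks. Across members, which are not independent replicates and share library and depth, these log2 values had a Spearman correlation of 0.982 in control and 0.981 in detrained mice, and the densities per kb 0.890 and 0.904.

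Few pairs differed by 1.5-fold or more. A pair was called when its fold was 1.5 or more in tags per kb and in tags per peak, in the same direction, and its detrained libraries lay both above or both below the control ones. This held for 72 of 6800 pairs (1.06%), 21 higher and 51 lower in detrained mice, beside 0.715% of all pairs. The higher pairs were 0.309% against a background of 0.257%, and the lower pairs 0.75% against 0.458%. The split between directions depended on the libraries, on the scaling and on the definition. It was 43 higher and 103 lower without C2, 59 and 61 without C3, 31 and 49 without Ex1, and 51 and 91 without Ex2. With each library scaled to its tags in listed peaks 31 were higher and 36 lower, and with the median ratio of all pairs set to 0 it was 23 and 41. Among peaks at least 4-fold over input 1 was higher and 18 lower, and with 80% of each peak covered 4 and 18. With input subtracted it was 30 and 99, and with tags per peak alone 507 and 521. When only tags per kb were required to differ, 249 pairs (3.66%) were called, beside 3.16% of all pairs. At 2-fold in both measures 3 pairs remained.

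**Figure D2:**
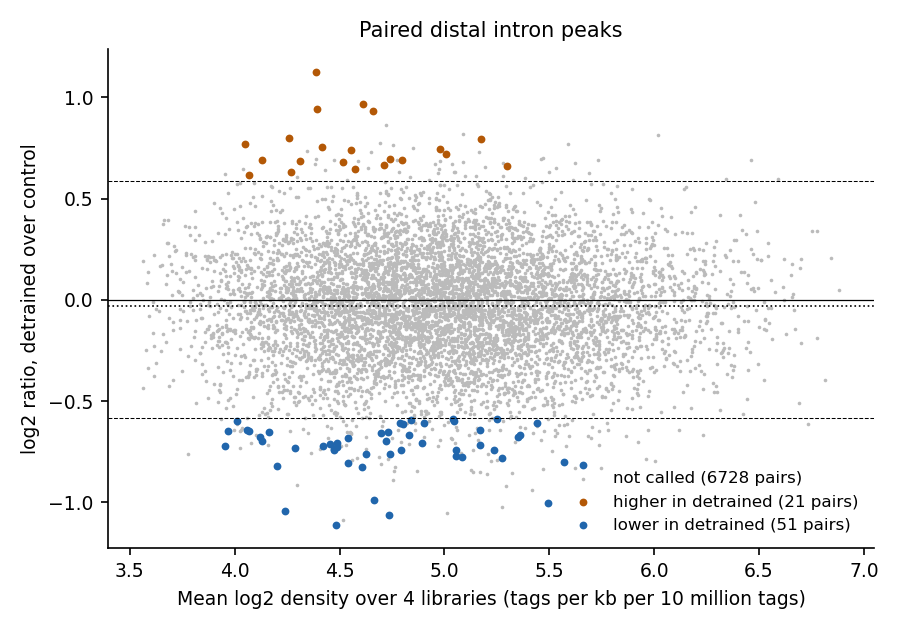
Each point is 1 of the 6800 paired distal intron peaks, with the mean log2 density over the 4 libraries on the horizontal axis and the log2 ratio of detrained over control density on the vertical axis. Dashed lines mark 1.5-fold and the dotted line the median of -0.03. The 21 pairs called higher and the 51 called lower lie mostly at low to middle densities, and points past the dashed lines in grey did not meet the call in tags per peak or in every library.

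Called pairs lay mostly at low to middle densities and were scattered over genes. Of the 72, 32 were among the 1700 least dense pairs and 4 among the 1700 densest, and all 4 of these were lower. Pairs called lower had a median of 305 pooled tags in control and 142 in detrained mice, and those called higher had 82 and 185. The fold in density was between 1.501 and 2.18. The called pairs lay near 70 genes, of which Prune2 and Gadl1 had 2 each, and for 26 the host gene was not the nearest. They were in the first intron in 17 cases (23.6%), beside 28.1% of the 6800 pairs. None overlapped a high-confidence super-enhancer of quadriceps, beside 2.63% of the 6800 pairs.

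Among the pairs called higher, the 5 with the largest fold were in Prune2 (intron 4 and intron 1), Foxp1, 4933424L21Rik beside Galnt10, and Depdc5. The peak in intron 4 of Prune2 (chr19:17011013-17012340), 55558 bp from the TSS, had densities of 14.28 and 14.02 in C2 and C3 and of 30.2 and 31.6 in Ex1 and Ex2. That is 2.18-fold higher in detrained mice, and the gap within each group was small. Its E-box is in the sequence given above. The peak in intron 1 of the same gene (chr19:16996427-16998219) had 13.9 and 15.1 against 26.9 and 23.7, or 1.74-fold. Prune2 had no other pair, so both of its pairs were higher.

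Foxp1 encodes a forkhead transcription factor. Its peak at chr6:99358848-99359624, in an intron of 126777 bp, had densities of 17.1 and 17.9 in C2 and C3 and of 32.6 and 36.0 in Ex1 and Ex2, 1.96-fold. The other pairs of Foxp1 did not follow it, since the 12 pairs split into 6 higher and 6 lower, with a median log2 ratio of -0.04. The peak near Galnt10, a glycosyltransferase gene, at chr11:57633557-57634213 had 15.3 and 15.1 against 28.3 and 30.0 (1.92-fold). Depdc5 encodes a subunit of the GATOR1 complex, which restrains mTORC1. Its peak in intron 25 at chr5:32930201-32931485 had 15.5 and 21.5 against 37.5 and 32.6 (1.91-fold). In both control libraries all 5 lay below the median of the distal intron peaks, which was 23.4 in C2 and 24.1 in C3.

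Among the 5 pairs with the largest decrease were those in Ak7, Mapk4 and Igf1. The peak in intron 12 of Ak7 (chr12:105757617-105759171), whose nearest TSS is that of the poly(A) polymerase gene Papola, had densities of 37.4 and 28.8 in C2 and C3 and of 12.9 and 17.9 in Ex1 and Ex2, 2.16-fold lower. The peak in intron 1 of Mapk4, an atypical MAP kinase gene, with D730045A05Rik as the nearest TSS, had 41.3 and 35.9 against 21.7 and 15.6, 2.09-fold lower.

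Igf1 encodes insulin-like growth factor 1, which promotes muscle growth. Its peak in intron 2 (chr10:87900405-87904565), 41374 bp from the TSS, had densities of 64.1 and 63.6 in C2 and C3 and of 25.2 and 40.4 in Ex1 and Ex2, 2.002-fold lower. It had the highest control density of these 8 pairs, with 1173 pooled tags in control and 695 in detrained mice. The control libraries agree closely, whereas the detrained libraries differ, and without Ex1 the pair was no longer called, with a log2 ratio of -0.66 in density but of -0.43 in tags per peak, short of 1.5-fold. Igf1 had 3 members in each list and this pair alone. The pair in Ak7 was not called without Ex1 or without C2, where its log2 ratio stayed at -0.88 and -0.92 in density but was -0.46 and -0.50 in tags per peak. The other 6 of the 8 pairs given here were called with any 1 library left out, which is not a count over all of the largest changes.

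**Figure D3:**
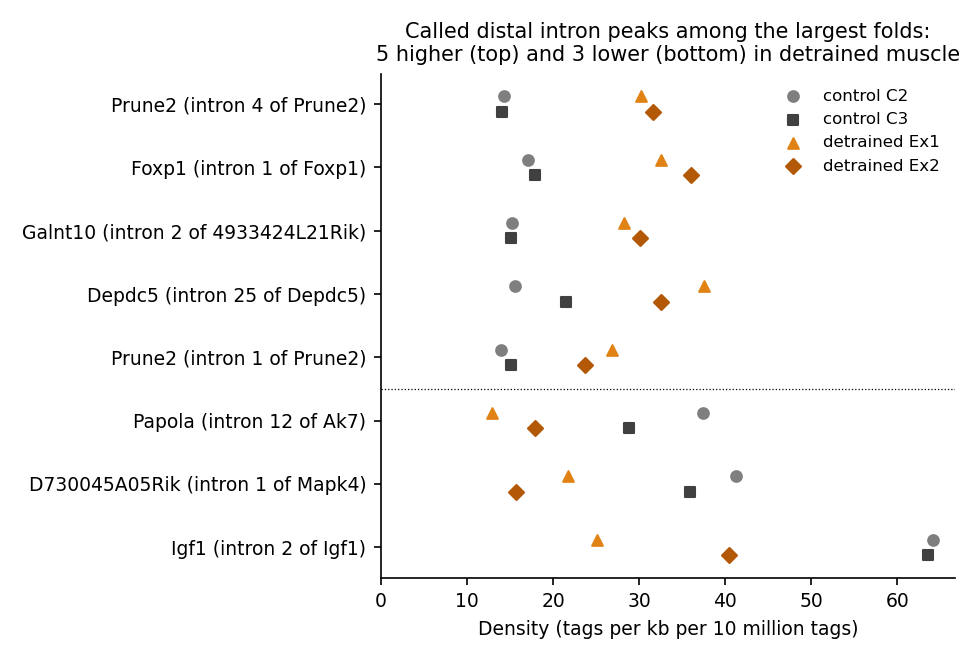
H3K27ac density (tags per kb per 10000000 tags) of 8 called pairs among those with the largest fold, in each of the 4 libraries. Rows give the nearest gene and the intron that holds the peak, with 5 pairs higher in detrained mice above the dotted line and 3 lower below it. In each row both detrained libraries lie on one side of both control libraries, and the Igf1 row shows 64.1 and 63.6 in control against 25.2 and 40.4 in detrained mice.

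The densest pairs did not change by 1.5-fold. A peak in intron 2 of Zbtb20 (chr16:43359194-43366362, nearest TSS Gm15713), which encodes a zinc finger repressor, had densities of 117.99 and 114 in C2 and C3 and of 122 and 118.2 in Ex1 and Ex2. Ssc4d, a scavenger receptor gene, had 107 and 107 against 131 and 116 at chr5:135960756-135963999. In intron 9 of Ece1, the endothelin-converting enzyme gene, the peak nearest to Eif4g3 (chr4:137940216-137945047) had 114 and 146 against 102 and 94.7. Cap2, which encodes an actin regulator of striated muscle, had 81.2 and 117 against 127 and 120 at chr13:46570533-46574411, and Arid1b, a subunit of the BAF remodelling complex, had 113 and 122 against 101 and 105 at chr17:5188948-5190921. The groups did not overlap at any of the 5, as at 48.5% of all pairs, with folds between 1.03 and 1.32 in either direction. In tags per peak, which leaves peak length out, the direction was the opposite at 4 of the 5, with log2 ratios of -0.0014 at Zbtb20, -0.21 at Ssc4d, 0.08 at Ece1 and -0.20 at Cap2, and it was the same at Arid1b (-0.10). The Cap2 value rested on the control libraries, with a log2 ratio in density of 0.34, but of 0.07 without C2 and 0.60 without C3, which is past 1.5-fold.

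Some genes were the nearest to many members. Counting both lists, the nearest gene was Rora for 64 members, Nfia for 62, Dlc1 for 58, Kcnma1 for 54, the noncoding gene 9530091C08Rik for 53, Nfib for 52, Ptprg for 52 and the noncoding gene 9430078K24Rik for 49. Nfia and Nfib are nuclear factor I genes, Dlc1 encodes a GTPase-activating protein, Kcnma1 a calcium-activated potassium channel and Ptprg a receptor tyrosine phosphatase. None of their 116 pairs was called, beside 0.715% of all pairs and 1.06% of distal intron pairs. Rora had 19 pairs with a median log2 ratio of -0.07, of which 11 were lower, and Nfib had 12 with a median of 0.13, of which 4 were lower. At Nfib the median density was 32.8 and 34.9 in C2 and C3, against 37.6 and 37.0 in Ex1 and Ex2. At Ptprg it was 33.2 and 33.7 against 42.3 and 37.1. Kcnma1 had 28.5 and 29.4 against 30.4 and 33.4, and Rora 36.5 and 37.8 against 36.0 and 36.1. The groups did not overlap at these 4 genes, with the detrained libraries below the control ones at Rora and above them at the other three. Such median densities did not overlap at 12 of the 24 genes with 10 or more pairs (50%), and single densities at 48.5% of all pairs, so 4 of 8 is near the background. The libraries of the groups overlapped at Nfia, Dlc1 and both noncoding genes, for example with 26.04 and 25.4 against 28.3 and 23.4 at Dlc1. By host gene the order changed, with 71 and 49 members in Rora, 46 and 40 in Zbtb20, 41 and 36 in Rad51b and 37 and 36 in Nfia in control and detrained mice.

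Most genes had few members. In control mice 5092 genes were the nearest to at least 1 distal intron peak, with a median of 2 members, and 255 genes had 10 or more and together 23.3% of the members. In detrained mice these numbers were 4674 genes, a median of 2, and 140 genes with 15.5%.

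Gene lists of muscle biology, 6 in number, were looked up by nearest gene, with 198 genes in all and 336 distal intron pairs. Of these 2 were called (0.595%), beside 0.715% of all pairs and 1.06% of distal intron pairs, so the share was near the background. The sarcomere and Z-disc list, which holds the contractile and anchoring proteins, had members at 18 of 35 genes in control and 19 in detrained mice. Titin (Ttn), Xirp2 and Myoz2 were among them, while the fast myosin genes Myh2 and Myh4 and the slow myosin gene Myh7 had none. The fast myosin gene Myh1 had 1 in control and none in detrained mice. Its 33 pairs had median densities of 35.1, 40.9, 40.6 and 37.1 in C2, C3, Ex1 and Ex2 and a median log2 ratio of 0.02, with 18 higher, 15 lower and none called. The gene with the most members was Pdlim5, which encodes a Z-disc LIM protein, with 8 and 9, and the densest pair was that in Cap2 given above.

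The list for excitation-contraction coupling and calcium handling had members at 21 of 29 genes in control and 20 in detrained mice. Its 44 pairs had a median log2 ratio of -0.02, with 21 higher, 23 lower and none called. Camk2d, a calcium/calmodulin-dependent kinase gene, had 14 and 10 members. The densest pair lay in the single intron of Orai1, which encodes the pore of the store-operated calcium channel, at chr5:123022492-123029492. It had densities of 79.4 and 92.5 in C2 and C3 and of 67.7 and 65.4 in Ex1 and Ex2, 1.29-fold lower and without overlap, as at 48.5% of all pairs. The detrained peak was longer, at 8297 against 7000 bp, and the log2 ratio was -0.37 in density but -0.12 in tags per peak. The ryanodine receptor gene Ryr1 and Casq1 had no member.

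The dystrophin complex and membrane list had members at 12 of 21 genes in control and 14 in detrained mice, and its 26 pairs had a median log2 ratio of 0.07, with 16 higher, 10 lower and none called. Utrn, the gene of utrophin, had 7 members in each list. The densest pair was in intron 1 of Dtna, a dystrobrevin gene, with 45.9 and 46.1 in C2 and C3, against 56.9 and 68.3 in Ex1 and Ex2, 1.35-fold higher. Its log2 ratio was 0.44 in density and 0.26 in tags per peak.

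The transcription factor list was the richest. Of its 38 genes 28 had members in each list, 301 in control and 229 in detrained mice, and its 124 pairs had a median log2 ratio of -0.04 with 57 higher and 67 lower. The Foxp1 pair was its only called pair. Nfia had the most members, 32 and 30, and also the densest pair (chr4:97750794-97755153), with 100.2 and 100.5 in C2 and C3, against 108 and 97.3 in Ex1 and Ex2, which overlap. Myod1 and Mef2a had no member. The nuclear receptor and energy regulator list had members at 29 of 43 genes in control and 22 in detrained mice, led by Rora, and its 62 pairs had a median log2 ratio of -0.04 with none called. Its densest pair lay in intron 3 of Nr3c2, the mineralocorticoid receptor gene, with 84.2 and 111 against 85.5 and 89.3.

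The insulin, IGF and growth signalling list had members at 22 of 32 genes in control and 23 in detrained mice. Its 47 pairs had a median log2 ratio of 0.05, with 25 higher and 22 lower, and the Igf1 pair was its only called pair. Tbc1d1, a Rab GTPase-activating protein gene that controls glucose uptake, had 18 and 12 members. The densest pair had Igf2r as its nearest TSS but lay in the second intron of Airn, the antisense transcript of that locus (chr17:12790387-12795828), with 61.1 and 70.4 against 71.3 and 71.0. Beside the median of -0.03 over all pairs, the medians of the 6 lists lay between -0.04 and 0.07, and this is a description of lists of unequal size.

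**Figure D4:**
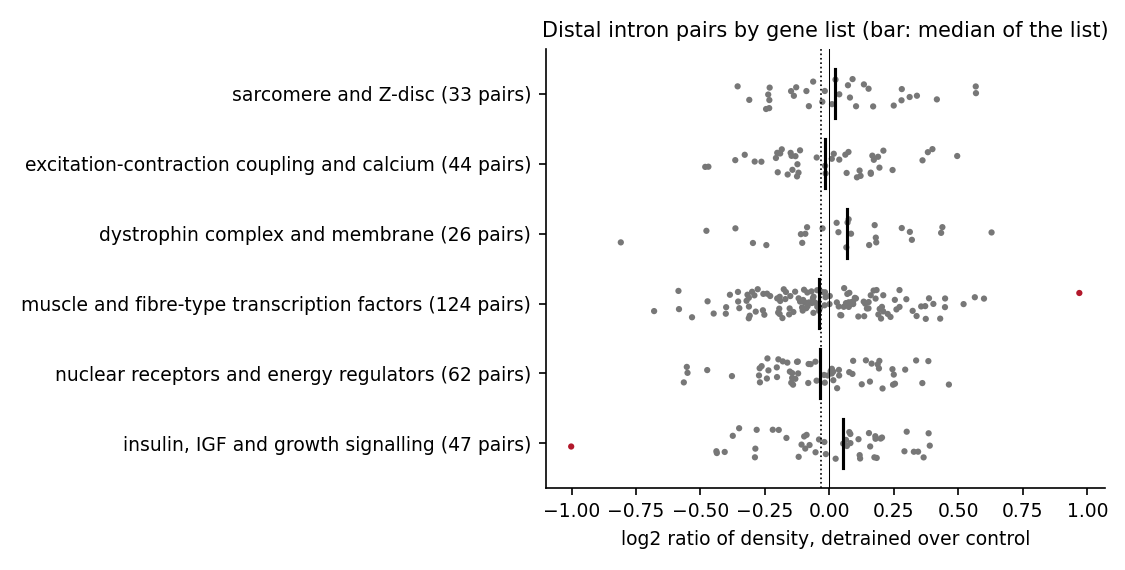
log2 ratio of detrained over control density for every distal intron pair whose nearest gene is in 1 of 6 gene lists. Each point is a pair, red points are called pairs (Foxp1 and Igf1), vertical bars are list medians and the dotted line is the median of -0.03 over the 6800 distal intron pairs. List medians lie between -0.04 and 0.07, and the points of every list lie on both sides of 0.

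The study listed 324 high-confidence super-enhancers of quadriceps, long stretches dense in enhancer marks, from other quadriceps libraries, and only their positions were used. Distal intron peaks overlapped 106 of them in control and 109 in detrained mice. Of the members 290 (1.88%) and 265 (2.11%) lay in one, against 4.98% and 5.66% of intron peaks nearer the TSS and 3.19% and 3.34% of distal intergenic peaks. Super-enhancers were chosen on dense signal of the same mark, so a higher density within them is a description. Members inside had median densities of 34.8 and 36.5 in C2 and C3, against 39.8 and 38.4 in Ex1 and Ex2, and those outside had 23.2 and 23.96 in control and 25.7 and 25.4 in detrained libraries. Of the members inside, 84.1% in control and 92.5% in detrained mice had a counterpart in the other list. The 179 pairs inside had a median log2 ratio of -0.03, as had those outside. The super-enhancers with the most members were labelled Slc45a1 (11 and 9), Myoz2 (8 and 8), Smad3 (9 and 6) and Aff1 (8 and 7).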

How the data were processed

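H3K27ac ChIP-seq of quadriceps gave 2 libraries and 1 input per group. Per the sources used here, the authors mapped unique reads to mm10 by Bowtie (1.2 in the submitters' processing notes), and HOMER peaks were called once for each group, on its pooled libraries over its input, at 2-fold and a false discovery rate of 0.05. The deposited pooled signal is tags per 10000000. The deposited log2 values per library are regularized log values made within HOMER, separately for each table, and the deposited log2 fold over input and p-value served only to filter peaks. The control columns are named C2 and C3 and the labels number them otherwise, so each was assigned to its group only. The deposited tables hold no tag count per library, so pooled tags were shared out by library total and 2 to the power of the log2 value. Density was taken per library with 0.5 tags added, and peak length as end minus start.

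Only the levels of classes were tested, within libraries, by an exact sign-flip permutation test. The distance to TSS in the tables agreed to within 5 bp with GRCm38.p6 for 94.0% of 87266 peaks, and no peak passed a chromosome end, so sequence, intron lengths and host symbols came from that build. Named peaks were the 5 largest called changes each way, the 5 densest pairs, the 3 longest and the 3 strongest unmatched members of each list, the 8 genes with most members, and for each gene list the gene with most members and the densest pair. Some peaks that this rule names, and a motif that was searched, are not reported here. The members and lists were chosen with earlier results of these data known. The pairs of Prune2 and of Foxp1 and the genes named as without members were looked at after their values were seen. The steps were tested on simulated data. Alternatives covered normalization, pseudocount, overlap, peak strength, distance, input subtraction, soft-masked peak centres and leaving out each library. The tools were scipy 1.17.1, numpy 2.4.6 and pandas 2.3.3 under Python 3.11.15, with pysam and samtools.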

Additional observations from a re-analysis of the deposited data

How the results depend on the processing

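The median change at paired distal intron peaks moved by less than the spread between libraries under every alternative tried, but its sign was not fixed: it was between -0.09 and 0.02 on the log2 scale with a library left out. The count of 72 called pairs (1.06% of 6800) depended most on the definition. Of 6800 pairs where no other number is given, it was 1028 with tags per peak alone, 249 with tags per kb alone, 3 at 2-fold, 22 of 2647 pairs (0.831%) with 80% of each peak covered, 131 of 7806 (1.68%) with any one-to-one overlap, 19 of 4319 (0.44%) at 4-fold over input, 129 with input subtracted, and 47 of 4909 (0.957%) without peaks whose centre is soft-masked, an alternative added after the data were seen. With a library left out it was between 80 and 146, where the lone library of a group sets its level without a check: 146 without C2, 120 without C3, 80 without Ex1 and 142 without Ex2. Fewer peaks enter the stricter settings, and otherwise the cause was not tested. The share over all pairs was taken only for the main rule (0.715%) and for tags per kb alone (3.16%). The other counts therefore have no background beside them, and whether distal intron pairs differ from all pairs there is not known.

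The shares of control and detrained members with a counterpart were 45.1% and 55.3% with 50% of each peak covered, 82.8% and 79.5% at 4-fold over input, and 73.4% and 74.4% with equal numbers of the densest peaks, so the lower control share was not kept at 4-fold over input. The density difference from nearer intron peaks was between -0.48 and -0.46 with a library left out, -0.90 in tags per peak and 0.0043 against peaks at 5 to 10 kb, which was chosen after the data were seen. That from intergenic peaks was between -0.013 and -0.00041 with a library left out and 0.0055 in tags per peak. It was -0.028 as a mean over peaks, -0.019 at 4-fold over input and -0.0087 without soft-masked centres. In each of these last settings it was negative in 4 of 4 libraries (exact sign-flip permutation p of 0.125). The replicate correlation was 0.890 and 0.904 for density, and 0.965 and 0.969 at 4-fold over input. The share in super-enhancers was 3.52% and 4.04% with those from H3K27ac, and 3.12% and 3.30% at 4-fold over input. The called pairs named kept their direction under every alternative in which they could be paired. Of the 10 named pairs that were not called, those at Zbtb20, Ssc4d, Ece1, Cap2 and Nr3c2 changed sign in tags per peak (0.09 at Nr3c2, the others as given above), as did Nr3c2 without C3 (0.05) and Nfia without Ex1 (-0.04). The alternative that keeps repeats could not be run, since no peak is named as a repeat. No paired analysis was possible because the groups were not tested against each other and the control columns carry numbers other than those of the labels. Depth limits the weakest members, which held 25 pooled tags in control and 19 in detrained mice.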
